A study of Homo sapiens with 16 samples.

Results

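The 10 genes described here encode transporters that carry amino acids across the plasma membrane: SLC7A11, SLC7A5, SLC3A2, SLC7A1, SLC38A1, SLC38A2, SLC1A4, SLC1A5, SLC6A9 and SLC43A1. They were chosen by symbol, without a threshold on measured values but with earlier results of these data known. All 10 were found among the 78894 genes of the deposited table. RNA came from T47D, an established human luminal breast cancer cell line that expresses the estrogen receptor. Their genotype was control guide or FAH knockout, FAH being the enzyme of the final step of tyrosine breakdown. Each genotype received vehicle (DMSO) or, for 3 days, 500 nM abemaciclib, a drug that blocks CDK4 and CDK6, kinases that start the cell cycle. Each of the 4 combinations had 4 libraries, 16 in all. All cells grew in high-glucose DMEM with serum, a medium that supplies amino acids and cystine. The labels give neither the guides nor whether the knockout line is 1 clone, and they do not call replicates separate cultures, so the p-values reflect spread among libraries that may be purely technical. The series asks, by its title, what FAH does in resistance to CDK4/6 inhibitors.

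Values are counts per 1000000 assigned reads (CPM). Library depth, read from the smallest step between CPM values, was 9915776 to 11963093 assigned reads. FAH mRNA itself was 26.5 ± 1.57 CPM in control vehicle libraries, 24.0 ± 1.35 under abemaciclib, 6.65 ± 0.323 in knockout vehicle libraries and 5.76 ± 0.744 in knockout libraries under abemaciclib (mean ± SD, n = 4, as for every such pair here). All 8 knockout libraries lay below all 8 control libraries. All 12 luminal epithelial markers averaged at least 1 CPM, and their summed level was 11632 to 11831 CPM in control vehicle, 13753 to 14409 in control abemaciclib, 15127 to 15539 in knockout vehicle and 18074 to 18450 CPM in knockout abemaciclib libraries. Basal markers reached that level for 4 of 8 genes (sums of 42.1 to 66.6 CPM, with KRT5 and KRT14 at or near 0), mesenchymal markers for 4 of 8 (77.0 to 103 CPM) and leukocyte markers for 2 of 7 (3.89 to 6.55 CPM). KRT8 and KRT18 carried much of the rise of the luminal sum, with group means of 2700 and 1725 CPM in control vehicle and 5048 and 3120 CPM in knockout vehicle libraries. The luminal genes moved in both directions: with knockout under vehicle 5 of its 12 genes were called higher and 6 lower (ESR1, PGR, GATA3, FOXA1, XBP1 and SPDEF), with a median difference of -0.02 on the log2(CPM + 1) scale. Over all tested genes, 24.6% were called higher and 13.1% lower in that comparison. The part of these markers in the transporters' differences was not tested. In bulk RNA, fewer cells of a type and less RNA per cell cannot be told apart.

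Cells cannot make essential amino acids and take up many others faster than they make them, so plasma membrane carriers set how much reaches the cytosol. Several of the proteins work in pairs: SLC3A2, a glycoprotein with a single membrane span, brings light chains such as SLC7A5 and SLC7A11 to the cell surface. SLC7A5 with SLC3A2 forms LAT1, which brings in leucine and other large neutral amino acids in exchange for glutamine, and SLC7A11 with SLC3A2 forms system xc-, which brings in cystine in exchange for glutamate and so feeds glutathione synthesis. SLC1A5 and SLC38A1/SLC38A2 carry glutamine, and the leucine that enters is sensed by mTORC1. Many of these genes are known targets of the transcription factor ATF4, whose translation increases when amino acids run short, and of NRF2 and MYC. LAT1, system xc- and SLC1A5 are known for supporting growth in some breast cancers.

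Most of these mRNAs were highest in control cells under vehicle and lower in each of the other 3 groups, while SLC38A2 went the other way and SLC38A1 hardly differed. A gene was called different at an adjusted p under 0.05 from limma on log2(CPM + 1), two-sided and adjusted over all 16218 genes tested, and every difference below is on that scale. Of the 9 transporter genes with at least 1 CPM in all 16 libraries, knockout under vehicle had 7 called lower and 1 called higher. Over all tested genes, 13.1% were called lower and 24.6% higher in that comparison. The median difference was -0.52 over the 9 genes and 0.06 over all tested genes. Under abemaciclib, knockout against control gave 3 of the 9 lower and 1 higher, beside 11.3% and 18.6% of all tested genes, with medians of -0.15 and 0.04. Abemaciclib against vehicle in control cells gave 7 of the 9 lower and 1 higher, where 31.1% and 19.6% of all tested genes were called, with medians of -0.75 and -0.05. The same drug comparison in knockout cells gave 5 of the 9 lower and 2 higher, against a background of 27.4% and 11%, with medians of -0.34 and -0.07. For 12.7% of all tested genes the knockout vehicle libraries lay wholly below the control vehicle libraries and for 22.2% wholly above, and the shares were 10.1% and 16.5% for knockout under abemaciclib, 26.7% and 16.1% for abemaciclib in control cells and 25.5% and 10.4% for abemaciclib in knockout cells. Of the 9 transporter genes, all those called were also separated in this way, except SLC1A4 with knockout under abemaciclib. The comparisons share libraries: knockout under vehicle and abemaciclib in control cells are both set against the same 4 control vehicle libraries. The transporters were chosen with earlier results of these data known. Their counts beside those of all genes, here and for the interaction, are therefore a description and not a test of an excess.

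The remaining gene, SLC43A1, passed the filter on low values (at least 1 CPM in at least 4 libraries) through its control vehicle libraries, where it was highest, with 7 of the 16 at or above that minimum. The filter thus favoured a difference from that group, so the gene is described alone and left out of these counts. The plot of CPM by library shows all 10 genes.

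**Figure D1:**
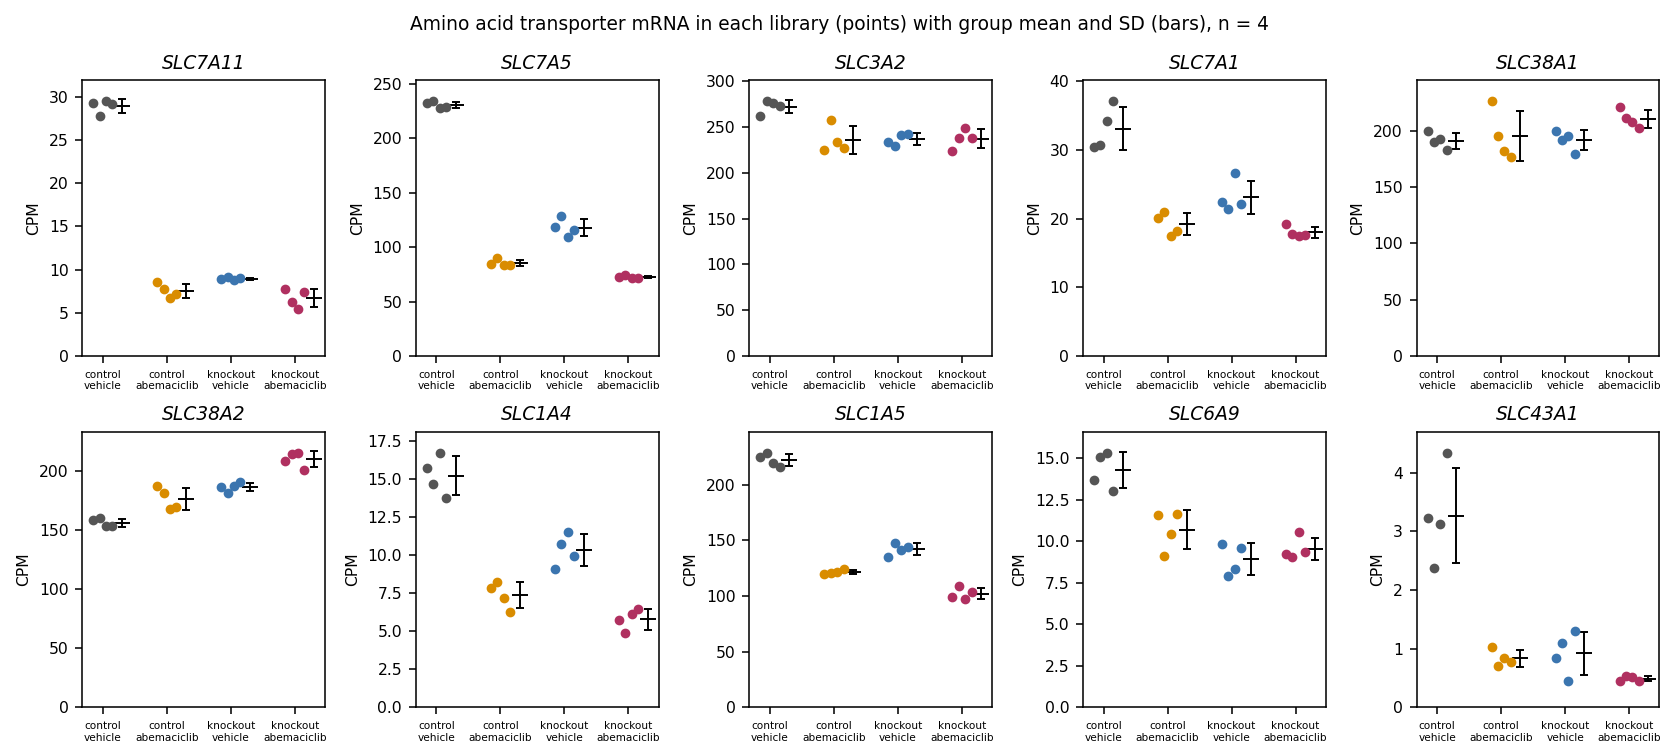
CPM (y axis, linear, from 0) of each of the 10 transporter genes in the 4 libraries of each group (points), with group mean and SD (bars). SLC7A11 sits between 27.7 and 29.4 CPM in control vehicle libraries and between 5.44 and 9.08 in the other 12, whereas SLC38A2 is lowest in control vehicle, at 153 to 160.2 CPM.

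SLC7A11 (ENSG00000151012, chr4:138164097-138242349, minus strand, GRCh38, GENCODE v29), the cystine and glutamate exchanger of system xc-, showed a control vehicle level apart from the other 3 groups. Its 4 control vehicle libraries measured 29.2, 27.7, 29.4 and 29.1 CPM. Knockout vehicle libraries measured 8.94, 9.08, 8.78 and 8.96 CPM, control abemaciclib libraries 8.50, 7.71, 6.71 and 7.13, and knockout abemaciclib libraries 7.77, 6.29, 5.44 and 7.35. The lowest control vehicle library was thus above every other library, while the knockout vehicle libraries had the narrowest spread. Group means were 28.9 ± 0.783, 8.94 ± 0.124, 7.51 ± 0.775 and 6.71 ± 1.06 CPM in the same order, so that knockout vehicle stood at 31.0%, control abemaciclib at 26.0% and knockout abemaciclib at 23.2% of control vehicle. Knockout under vehicle lowered the log2 level by 1.59 (difference -1.59, SE 0.0875, limma adjusted p = 3.41e-16), and abemaciclib in control cells gave -1.82 (limma adjusted p = 2.03e-18). In knockout cells abemaciclib gave a further -0.38 (limma adjusted p = 7.71e-04), with no overlap between the groups. Under abemaciclib, knockout and control libraries overlapped and the difference of -0.15 was not called (95% interval -0.33 to 0.03, limma adjusted p = 0.213). The antisense gene SLC7A11-AS1, which shares 865 exon bases with SLC7A11 on the opposite strand, is listed at 0 in all 16 libraries.

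SLC7A5 (ENSG00000103257, chr16:87830023-87869488, minus strand), the leucine-carrying light chain of LAT1, was graded across the 4 groups with no overlap anywhere in the order. Control vehicle libraries measured 232, 234, 228 and 229 CPM, and knockout vehicle libraries 118, 128, 109 and 115 CPM. Control abemaciclib libraries followed at 84.6, 89.9, 83.7 and 83.6 CPM, and knockout abemaciclib libraries at 72.4, 73.9, 71.9 and 71.4 CPM. Every knockout vehicle library was above every control abemaciclib library, a pair that was not tested. The group means of 231 ± 2.91, 118 ± 7.88, 85.5 ± 2.98 and 72.4 ± 1.08 CPM correspond to 51.0%, 37.1% and 31.4% of control vehicle for the last 3. The gene fell in all 4 comparisons: by 0.97 with knockout under vehicle (limma adjusted p = 2.51e-19), by 1.42 with abemaciclib in control cells (7.6e-25), by 0.69 with abemaciclib in knockout cells (5.17e-16) and by 0.24 with knockout under abemaciclib (2.35e-05). The related copies SLC7A5P1 and SLC7A5P2 measured at most 0.0252 and 0.155 CPM, and 271 bases of SLC7A5 exons (5.71%) are shared with an antisense gene on the opposite strand.

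The promoter of SLC7A5 is shown because the gene differed in all 4 comparisons and its window holds matches to 2 of the 3 motifs searched. It runs from 250 bases before to 10 bases after the start site at chr16:87869498-87869757 (GRCh38.p14, RefSeq, minus strand), is written 5′ to 3′ on the gene's strand, and has in capitals the E-box CACGTG, the core that MYC binds, and the antioxidant response element TGACNNNGC, the core that NRF2 binds.
SLC7A5: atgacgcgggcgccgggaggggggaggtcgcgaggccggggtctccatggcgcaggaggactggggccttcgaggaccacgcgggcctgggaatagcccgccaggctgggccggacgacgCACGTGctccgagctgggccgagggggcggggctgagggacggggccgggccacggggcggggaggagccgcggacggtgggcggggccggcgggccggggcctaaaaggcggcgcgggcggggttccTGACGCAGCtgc

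SLC3A2 (ENSG00000168003, chr11:62856102-62888875, plus strand), the heavy chain shared by LAT1 and system xc-, varied little. Its control vehicle libraries measured 262, 278, 276 and 272 CPM, and its knockout vehicle libraries 233, 229.7, 241 and 243 CPM. Control abemaciclib libraries measured 225, 257, 233 and 227 CPM and knockout abemaciclib libraries 224, 238, 249 and 238 CPM. The control vehicle libraries were above all 12 others, which overlapped each other. Means were 272 ± 7.01 CPM in control vehicle and 237 ± 6.22, 236 ± 14.9 and 237 ± 10.0 CPM in knockout vehicle, control abemaciclib and knockout abemaciclib, near 87% of control vehicle in each (87.0%, 86.6% and 87.2%). Knockout under vehicle gave -0.20 (limma adjusted p = 7.41e-05) and abemaciclib in control cells -0.21 (2.28e-05). Neither knockout under abemaciclib (0.01, 95% interval -0.07 to 0.09) nor abemaciclib in knockout cells (0.00, -0.07 to 0.08) was called.

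Since both light chains need SLC3A2 as their partner, the ratio of light chain to heavy chain mRNA was taken within each library, where it does not depend on how libraries are scaled. Values were compared between groups, not between genes, since CPM does not allow for gene length. The SLC7A11 to SLC3A2 ratio was 0.106 ± 0.00484 in control vehicle, 0.0378 ± 0.00141 in knockout vehicle, 0.0320 ± 0.00403 in control abemaciclib and 0.0285 ± 0.00554 in knockout abemaciclib libraries. The SLC7A5 to SLC3A2 ratio was 0.848 ± 0.0271, 0.498 ± 0.0454, 0.363 ± 0.0118 and 0.306 ± 0.0145 in the same order. The 4 libraries of each group stood apart from those of the other group in all 4 comparisons for SLC7A5 to SLC3A2 and in 3 of 4 for SLC7A11 to SLC3A2, the exception being knockout against control under abemaciclib. Each of these non-overlapping comparisons had an exact two-sided permutation p of 0.0286, the smallest that 4 against 4 libraries can give, and an adjusted p of 0.0508 over the 16 ratio tests made, so none passed after adjustment. The differences in log2 ratio for SLC7A5 to SLC3A2 were -0.77 and -0.25 for knockout under vehicle and under abemaciclib, and -1.22 and -0.70 for abemaciclib in control and in knockout cells.

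**Figure D2:**
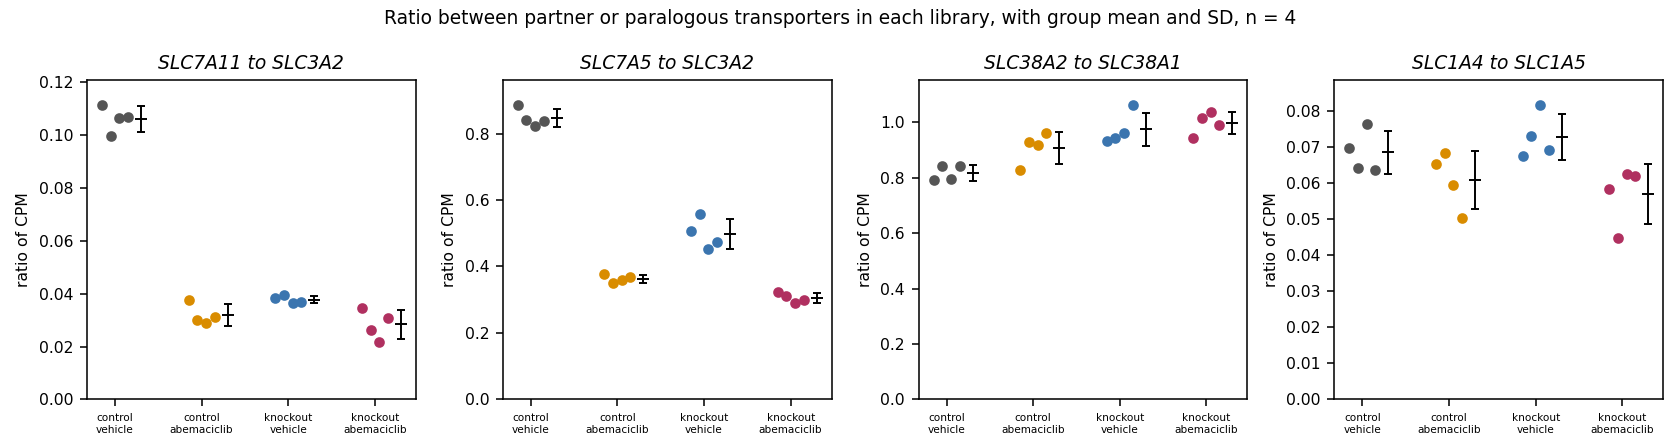
Ratio of CPM (y axis, linear, from 0) between partner or related transporters in each library (points), with group mean and SD (bars), n = 4. The SLC7A5 to SLC3A2 ratio falls from 0.848 in control vehicle to 0.306 in knockout abemaciclib libraries, and the SLC1A4 to SLC1A5 ratio lies between 0.0448 and 0.0818 throughout.

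SLC7A1 (ENSG00000139514, chr13:29509410-29595688, minus strand), also called CAT1, takes up arginine and lysine. Control vehicle libraries measured 30.4, 30.7, 34.2 and 37.1 CPM, and knockout vehicle libraries 22.4, 21.3, 26.7 and 22.1 CPM. Control abemaciclib libraries measured 20.1, 21.0, 17.5 and 18.2 CPM, and knockout abemaciclib libraries 19.2, 17.8, 17.5 and 17.6 CPM. The last 2 groups overlapped, and no other pair of groups did. Means were 33.1 ± 3.15, 23.1 ± 2.41, 19.2 ± 1.63 and 18.0 ± 0.795 CPM, or 69.9%, 58.1% and 54.5% of control vehicle for the last 3. SLC7A1 fell by 0.50 with knockout under vehicle (limma adjusted p = 1.3e-06), by 0.75 with abemaciclib in control cells (1.19e-10) and by 0.34 with abemaciclib in knockout cells (3.16e-04). Knockout under abemaciclib gave -0.08 and was not called (95% interval -0.23 to 0.06).

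The promoter of SLC7A1 is printed because it holds, close to its start site, the C/EBP-ATF response element TGATGNAA, the composite site that ATF4 dimers bind. It covers 250 bases before to 20 after the start at chr13:29595669-29595938 (minus strand of the gene, 5′ to 3′, GRCh38.p14, RefSeq). The capitals mark an antioxidant response element and, near the end, the C/EBP-ATF element.
SLC7A1: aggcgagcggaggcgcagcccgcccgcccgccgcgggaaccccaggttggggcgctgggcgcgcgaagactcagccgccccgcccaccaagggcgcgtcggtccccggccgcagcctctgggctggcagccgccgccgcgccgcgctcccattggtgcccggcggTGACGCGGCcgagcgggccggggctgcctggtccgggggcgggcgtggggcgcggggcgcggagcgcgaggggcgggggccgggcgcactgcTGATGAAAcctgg

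SLC1A4 and SLC1A5 are related exchangers of small neutral amino acids: SLC1A4 (ASCT1; ENSG00000115902, chr2:64988477-65023865, plus strand) carries alanine, serine and cysteine, and SLC1A5 (ASCT2; ENSG00000105281, chr19:46774883-46788594, minus strand) also carries glutamine. SLC1A4 measured 15.7, 14.7, 16.7 and 13.8 CPM in control vehicle libraries and 9.11, 10.8, 11.6 and 9.98 CPM in knockout vehicle libraries. Under abemaciclib its control libraries measured 7.85, 8.23, 7.22 and 6.26 CPM and its knockout libraries 5.76, 4.87, 6.12 and 6.45 CPM. Groups did not overlap, apart from control and knockout under abemaciclib. Means were 15.2 ± 1.29, 10.4 ± 1.05, 7.39 ± 0.861 and 5.80 ± 0.679 CPM, or 68.0%, 48.5% and 38.1% of control vehicle for the last 3. SLC1A4 fell by 0.52 with knockout under vehicle (limma adjusted p = 5.1e-05), by 0.95 with abemaciclib in control cells (2.48e-10) and by 0.74 with abemaciclib in knockout cells (9.73e-08). The call for knockout under abemaciclib (-0.30, limma adjusted p = 0.0145) was lost without control abemaciclib replicate 2 (-0.26, adjusted p = 0.0606) and without knockout abemaciclib replicate 2 (-0.23, adjusted p = 0.0778), and with no filter on low values (adjusted p = 0.0524).

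SLC1A5 showed an order of groups without any overlap, as SLC7A5 did. Control vehicle libraries measured 225, 229, 219 and 216 CPM and knockout vehicle libraries 135, 147, 141 and 144 CPM. Control abemaciclib libraries measured 119.9, 120.4, 121 and 125 CPM and knockout abemaciclib libraries 98.7, 109, 97.6 and 104 CPM. Means were 222 ± 5.66, 142 ± 5.20, 122 ± 2.07 and 102 ± 5.09 CPM, or 63.9%, 54.7% and 46.0% of control vehicle for the last 3. The gene fell by 0.64 with knockout under vehicle (limma adjusted p = 1.62e-15), by 0.86 with abemaciclib in control cells (1.22e-19), by 0.47 with abemaciclib in knockout cells (2.15e-12) and by 0.25 with knockout under abemaciclib (3.27e-06). An antisense gene shares 780 of its exon bases (23.4%) on the opposite strand and its values were whole reads in only 6 of 16 libraries, so part of its count may be shared with other genes and its level is uncertain. Within libraries the SLC1A4 to SLC1A5 ratio was 0.0685 ± 0.00589, 0.0729 ± 0.00640, 0.0609 ± 0.00799 and 0.0570 ± 0.00833 in the same group order. Of its 4 comparisons, abemaciclib in knockout cells alone reached the smallest exact permutation p (-0.36, p = 0.0286, adjusted 0.0508). That p was 0.0857 without knockout vehicle replicate 3, with a difference of -0.31.

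SLC6A9 (GlyT1; ENSG00000196517, chr1:43991500-44031467, minus strand) takes up glycine with sodium and chloride. Control vehicle libraries measured 13.7, 15.1, 15.3 and 13.01 CPM and knockout vehicle libraries 9.86, 7.88, 8.33 and 9.61 CPM. Control abemaciclib libraries measured 11.6, 9.11, 10.5 and 11.7 CPM and knockout abemaciclib libraries 9.24, 9.03, 10.5 and 9.35 CPM. Control vehicle stood above the rest, and the other 3 groups overlapped. Unlike in the exchangers above, the lowest mean was in knockout vehicle libraries: 14.3 ± 1.10 CPM in control vehicle, 10.7 ± 1.19 in control abemaciclib, 9.54 ± 0.676 in knockout abemaciclib and 8.92 ± 0.966 in knockout vehicle. SLC6A9 fell by 0.63 with knockout under vehicle (limma adjusted p = 7.52e-07) and by 0.39 with abemaciclib in control cells (3.99e-04). Neither knockout under abemaciclib (-0.15, 95% interval -0.33 to 0.03) nor abemaciclib in knockout cells (0.09, -0.09 to 0.27) was called, and with quantile normalization the last reached 0.23 (limma adjusted p = 0.0346). CCDC24 overlaps 404 bases of SLC6A9 exons on the opposite strand, and its own level was 10.4 to 14.5 CPM.

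SLC43A1 (LAT3; ENSG00000149150, chr11:57484534-57515786, minus strand), which carries large neutral amino acids without a heavy chain, was measured on 5 to 46 estimated reads a library. Control vehicle libraries measured 3.23, 2.38, 3.12 and 4.34 CPM and knockout vehicle libraries 0.836, 1.10, 0.448 and 1.29 CPM. Control abemaciclib libraries measured 1.03, 0.701, 0.850 and 0.771 CPM and knockout abemaciclib libraries 0.457, 0.531, 0.510 and 0.454 CPM. The control vehicle libraries stood clear of the other 12. Means were 3.27 ± 0.807, 0.919 ± 0.366, 0.837 ± 0.141 and 0.488 ± 0.0385 CPM. Knockout under vehicle gave -1.16 and abemaciclib in control cells -1.20, values that the added 1 CPM makes smaller than the change in CPM, with means at 28.1% and 25.6% of control vehicle. These 2 differences are given as a description, with no test, since the gene entered the fit through the control vehicle libraries. Neither knockout under abemaciclib (-0.30, limma adjusted p = 0.116) nor abemaciclib in knockout cells (-0.35, adjusted p = 0.0568) was called. The latter was called without knockout vehicle replicate 3 (-0.47, adjusted p = 0.0107), without control vehicle replicate 2 (adjusted p = 0.0489) or 4 (adjusted p = 0.0482), and with a pseudocount of 0.1 (-0.71, adjusted p = 0.0313).

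SLC38A1 and SLC38A2 are neighbouring genes on chromosome 12 that encode SNAT1 and SNAT2, sodium-coupled importers of glutamine, alanine and other small neutral amino acids. SLC38A2 (ENSG00000134294, chr12:46358189-46372867, minus strand), known as the system A carrier that cells increase when amino acids are scarce, was the only gene of the 10 called higher in all 4 comparisons. Its control vehicle libraries measured 158, 160.2, 153 and 154 CPM, and its control abemaciclib libraries 187, 182, 168 and 170.1 CPM. Knockout vehicle libraries measured 187, 182, 187 and 191 CPM, and knockout abemaciclib libraries 209, 215, 215 and 201 CPM. The control vehicle libraries were the lowest and the knockout abemaciclib libraries the highest, and the groups between them overlapped. Means were 156 ± 3.35, 177 ± 9.20, 187 ± 3.67 and 210.0 ± 6.75 CPM, or 113%, 119% and 134% of control vehicle for the last 3. The gene rose by 0.25 with knockout under vehicle (limma adjusted p = 8.78e-07), by 0.25 with knockout under abemaciclib (1.72e-06), by 0.17 with abemaciclib in control cells (1.38e-04) and by 0.17 with abemaciclib in knockout cells (3.12e-04).

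SLC38A1 (ENSG00000111371, chr12:46183063-46270017, minus strand) stayed close to one level. Control vehicle libraries measured 199.8, 190.4, 193 and 183 CPM, and knockout vehicle libraries 199.9, 192, 195 and 179 CPM. Control abemaciclib libraries measured 226, 195, 182 and 177 CPM, the widest spread of the 4 groups, and knockout abemaciclib libraries 221, 212, 208 and 203 CPM. All groups overlapped except knockout abemaciclib with either vehicle group. Means were 191 ± 7.05, 192 ± 8.81, 195 ± 22.0 and 211 ± 7.86 CPM. Knockout under vehicle gave 0.00 (95% interval -0.10 to 0.10), abemaciclib in control cells 0.02 (-0.08 to 0.12) and knockout under abemaciclib 0.12 (0.02 to 0.22, limma adjusted p = 0.0755), none of them called. The call for abemaciclib in knockout cells (0.14, limma adjusted p = 0.0267) was lost without knockout vehicle replicate 4 (0.11, adjusted p = 0.121), knockout abemaciclib replicate 1 (0.11, adjusted p = 0.0967) or knockout abemaciclib replicate 2 (0.14, adjusted p = 0.0536), with no filter on low values (0.174) and with limma without a trend (0.122). Without control abemaciclib replicate 1, knockout under abemaciclib was called (0.19, adjusted p = 4.47e-04). SLC38A1 values were whole reads in 8 of 16 libraries, so part of its count may be shared with other genes and its level is uncertain.

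The ratio of SLC38A2 to SLC38A1 within a library was 0.818 ± 0.0277 in control vehicle, 0.976 ± 0.0597 in knockout vehicle, 0.909 ± 0.0575 in control abemaciclib and 0.997 ± 0.0398 in knockout abemaciclib libraries. The log2 ratio differed by 0.25 with knockout under vehicle (exact permutation p = 0.0286, adjusted 0.0508) and by 0.15 with abemaciclib in control cells (exact permutation p = 0.0857), a p that fell to 0.0286 without control abemaciclib replicate 1 (0.20). The promoter of SLC38A2 is printed as that of the gene called higher in every comparison. None of the 3 motifs searched was found in its window, from 250 bases before to 50 after the start. Sequence outside the windows, such as the rest of the gene, was not searched. The window of SLC6A9, which fell with knockout under vehicle, also held none of the 3 motifs. A window of SLC38A1, which hardly differed, held a C/EBP-ATF match. The printed SLC38A2 stretch covers the 250 bases before the start at chr12:46372774-46373023 (GRCh38.p14, RefSeq, gene on the minus strand, 5′ to 3′).
SLC38A2: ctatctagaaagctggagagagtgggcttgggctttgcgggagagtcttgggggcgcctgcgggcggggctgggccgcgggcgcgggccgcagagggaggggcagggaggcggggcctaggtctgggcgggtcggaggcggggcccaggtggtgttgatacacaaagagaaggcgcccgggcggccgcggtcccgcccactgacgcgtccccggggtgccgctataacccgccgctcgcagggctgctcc

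**Figure D3:**
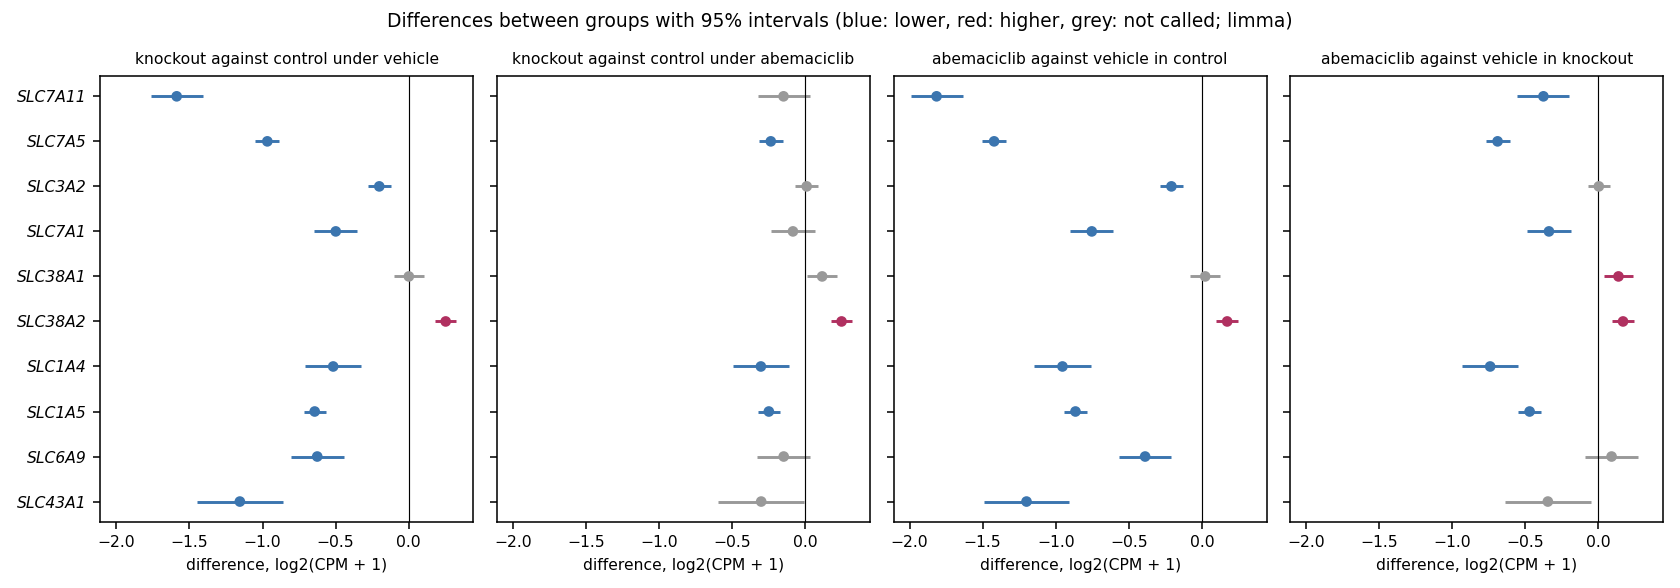
Difference in log2(CPM + 1) (x axis) of each transporter gene in the 4 comparisons, with 95% intervals (lines) coloured by limma call (blue lower, red higher, grey not called). SLC7A11 and SLC7A5 lie farthest below 0 for abemaciclib in control cells, at -1.82 and -1.42, and SLC38A2 lies above 0 in all 4 comparisons.

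The interaction term asks whether the drug difference was the same in both genotypes. It is the drug difference in knockout cells minus that in control cells, so a positive value means that abemaciclib lowered the mRNA less, or raised it more, in knockout cells. Of the 9 genes measured at 1 CPM or more in all libraries, 6 had a called interaction and all 6 were positive, where 4.68% of all tested genes were called positive and 6.16% negative. The median interaction was 0.39 over the 9 genes and -0.03 over all tested genes. SLC7A11 had 1.44 (SE 0.124, limma adjusted p = 3.02e-10), followed by SLC7A5 with 0.73 (4.01e-11), SLC6A9 with 0.48 (0.00949), SLC7A1 with 0.41 (0.00634), SLC1A5 with 0.39 (2.75e-06) and SLC3A2 with 0.21 (0.00787). SLC43A1 measured 0.85, a value that includes its control vehicle libraries and was favoured by the filter in the same way. The interactions of SLC38A1 (0.11, 95% interval -0.03 to 0.26), SLC38A2 (0.00, -0.11 to 0.10) and SLC1A4 (0.21, -0.06 to 0.49) were not called, and their intervals do not show that both genotypes responded alike. The call for SLC3A2 was lost with quantile normalization (0.14, adjusted p = 0.0938), with limma without a trend (adjusted p = 0.0783) and with no filter on low values (adjusted p = 0.0636), and that for SLC7A1 with no filter (adjusted p = 0.0511). Without control abemaciclib replicate 1, SLC38A1 was called (0.19, adjusted p = 0.0235).

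The same result can be read as a sum. For SLC7A11, knockout alone gave -1.59 and abemaciclib alone -1.82, which add to -3.40, and the knockout cells under abemaciclib measured -1.96 from control vehicle. For SLC7A5 the sum was -2.39 and the measured difference -1.66, and for SLC1A5 they were -1.51 and -1.11. The combined difference was therefore nearer to that of the drug alone than to the sum for these 3 genes. SLC1A4 came closer to its sum, with -1.47 summed and -1.26 measured, and SLC38A2 had 0.43 summed and 0.42 measured. SLC6A9 measured -0.54 where the sum was -1.01 and knockout alone gave -0.63.

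**Figure D4:**
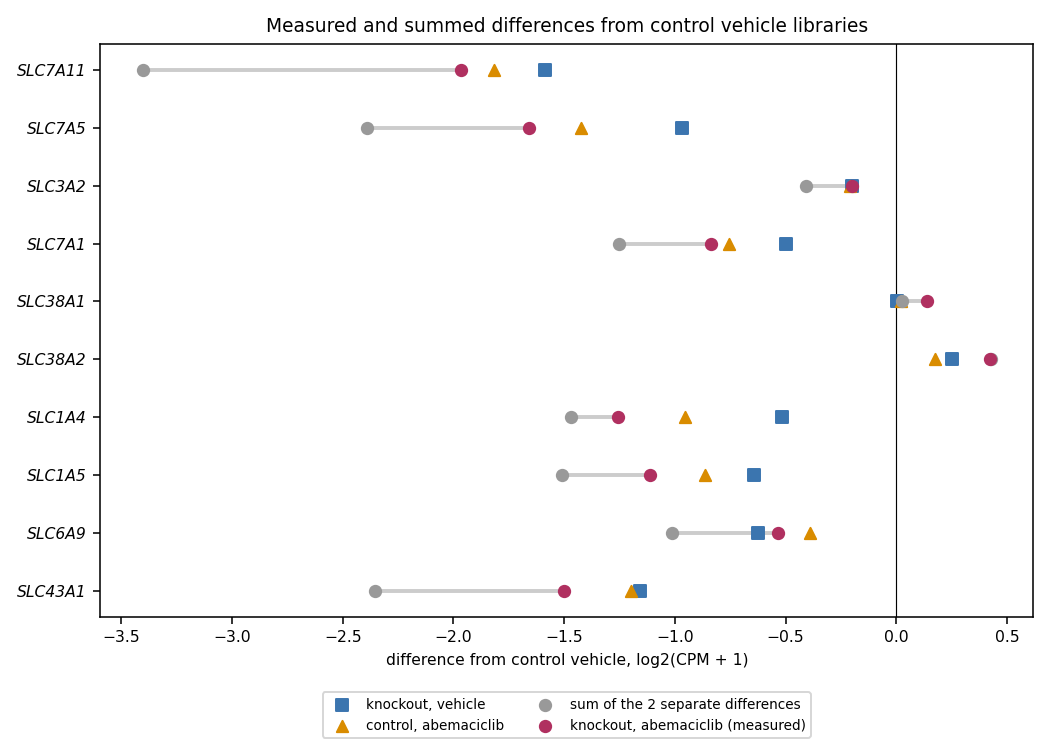
Difference from control vehicle in log2(CPM + 1) (x axis) for knockout alone, abemaciclib alone, the sum of both and the measured value in knockout cells under abemaciclib. The measured SLC7A11 value of -1.96 lies far from the sum of -3.40, and the SLC38A2 values of 0.42 and 0.43 coincide.

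Promoter windows of RefSeq (GRCh38.p14, 250 bases before to 50 after each start) were matched for 9 of the 10 genes, with 16 windows among them, and SLC7A11 had none. Both strands were searched for the 3 motifs, which do not overlap at any site found. The C/EBP-ATF response element TGATGNAA was in 5 of the 16 windows and in 3.62% of all 35116 windows of the table. The antioxidant response element TGACNNNGC was in 4 of the 16 and in 13.3% of all, and the E-box CACGTG in 3 of the 16 and in 7.26% of all. A match is a run of letters and not a measured binding site, and windows of one gene can share sequence. The 5 C/EBP-ATF matches are printed because ATF4 is a known regulator of these genes and its mRNA was measured here, with the match in capitals on the gene's strand, 5′ to 3′.
SLC7A1: ggcgcactgcTGATGAAAcctggcgccg
SLC38A1: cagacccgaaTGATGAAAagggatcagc
SLC1A5: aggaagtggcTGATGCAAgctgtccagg
SLC1A4: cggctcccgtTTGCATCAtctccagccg
SLC3A2: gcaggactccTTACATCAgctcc

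These lie at chr13:29595664-29595691 (SLC7A1), chr12:46266503-46266530 (SLC38A1), chr19:46784894-46784921 (SLC1A5), chr2:64989382-64989409 (SLC1A4) and chr11:62881726-62881748 (SLC3A2). Only the SLC7A1 match is in a window at the annotated gene start, and the others are in windows at starts inside the gene. For SLC1A5, SLC1A4 and SLC3A2 the window at the annotated gene start held no match. SLC38A1 had no window at its annotated gene start. SLC38A1, SLC1A4 and SLC3A2 also had other windows without a match. In SLC1A4 and SLC3A2 the motif reads on the opposite strand, so the capitals are its reverse complement. The 5 genes did not share 1 pattern in the libraries: SLC7A1, SLC1A4 and SLC1A5 fell with knockout under vehicle by 0.50, 0.52 and 0.64, SLC3A2 fell by 0.20, and SLC38A1 measured 0.00.

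ATF4 and the other genes of a list of 21 regulators of amino acid transport were measured in the same libraries. ATF4 mRNA was 252 ± 13.7 CPM in control vehicle, 166 ± 6.66 in knockout vehicle, 188 ± 7.56 in control abemaciclib and 159 ± 4.31 CPM in knockout abemaciclib libraries. It fell by 0.60 with knockout under vehicle (limma adjusted p = 2.24e-14) and by 0.42 with abemaciclib in control cells (4.01e-11). Knockout under abemaciclib gave a called difference of -0.24 (limma adjusted p = 1.05e-05), whereas abemaciclib in knockout cells gave -0.06 and was not called (adjusted p = 0.24). The ATF4 interaction of 0.36 was called (limma adjusted p = 1.74e-05). ATF4 is controlled largely at translation, which RNA does not measure. TRIB3, a pseudokinase and target of ATF4, fell in all 4 comparisons, by 1.18 with knockout under vehicle and 1.08 with abemaciclib in control cells, with an interaction of 0.70 (limma adjusted p = 2.86e-07). CEBPG, a partner of ATF4, fell by 0.46 and 0.34 in those 2 comparisons. DDIT3, a stress transcription factor, instead rose with abemaciclib, by 0.52 in control and 0.35 in knockout cells. With knockout under abemaciclib DDIT3 was called lower (-0.29, limma adjusted p = 1.62e-04). PPP1R15A, another gene of the list, was called higher in all 4 comparisons. Knockout gave 0.25 under vehicle, where libraries overlapped, and 0.29 under abemaciclib (limma adjusted p = 0.0317 and 0.0152). The drug raised it by 0.28 for the control genotype and 0.33 for the knockout (limma adjusted p = 0.00955 and 0.00461).

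CEBPB, another C/EBP factor, went from 259 CPM in control vehicle to 224 in knockout vehicle and 233 in control abemaciclib libraries, falling by 0.21 and 0.15 (limma adjusted p = 4.07e-06 and 1.87e-04). With abemaciclib in knockout cells it rose by 0.08 (limma adjusted p = 0.0442), an interaction of 0.23 (5.64e-04).

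Several other regulators had other patterns. NEDD4L, a ubiquitin ligase of membrane proteins, rose with knockout by 0.78 under vehicle and 0.71 under abemaciclib (limma adjusted p = 2.29e-12 and 3.66e-11). NFE2L2, which encodes NRF2, rose with knockout by 0.20 and 0.24 and fell with abemaciclib by 0.19 and 0.15. MYC measured 0.08 with knockout under vehicle, which was not called, rose by 0.36 with knockout under abemaciclib (limma adjusted p = 2.27e-09) and fell by 0.22 with abemaciclib in control cells, with an interaction of 0.28 (3.58e-04). Of the 20 tested regulators, 6 were called higher and 6 lower with knockout under vehicle (list median 0.03), where 24.6% and 13.1% of all tested genes were called. With knockout under abemaciclib 7 and 6 were called (0.02), beside 18.6% and 11.3% of all tested genes. With abemaciclib in control cells it was 2 and 11 (-0.13), beside 19.6% and 31.1%, and in knockout cells 3 and 6 (-0.07), beside 11% and 27.4%. In the interaction 6 were positive and 1 negative (0.04), beside 4.68% and 6.16%. The count higher with knockout under vehicle was near the share over all genes.

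Other plasma membrane amino acid transporters were mostly not expressed: 9 of a list of 31 were tested. With knockout under vehicle 4 of the 9 were higher and 1 lower (median 0.19; 24.6% and 13.1% over all tested genes), and with knockout under abemaciclib 3 and 1 (-0.07; 18.6% and 11.3%). With abemaciclib in control cells 5 were higher and 2 lower (0.26; 19.6% and 31.1%), and in knockout cells 4 and 3 (0.11; 11% and 27.4%). These counts are a description: they include SLC6A14, which passed the filter only through the knockout libraries. SLC7A6, a light chain that exchanges cationic for neutral amino acids with SLC3A2, rose in all 4, from a mean of 22.8 CPM in control vehicle to 31.3 in knockout vehicle, 28.5 in control abemaciclib and 36.9 in knockout abemaciclib libraries. SLC43A2 (LAT4), the relative of SLC43A1, went from 44.6 CPM to 52.9, 64.6 and 72.2 in the same order, and also rose in all 4. SLC7A8 (LAT2), another light chain of SLC3A2, rose with abemaciclib by 0.58 in control and 0.34 in knockout cells and with knockout under vehicle by 0.26. The light chains of SLC3A2 thus included genes called lower (SLC7A11 and SLC7A5) and genes called higher (SLC7A6 and SLC7A8) with abemaciclib in both genotypes.

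**Figure D5:**
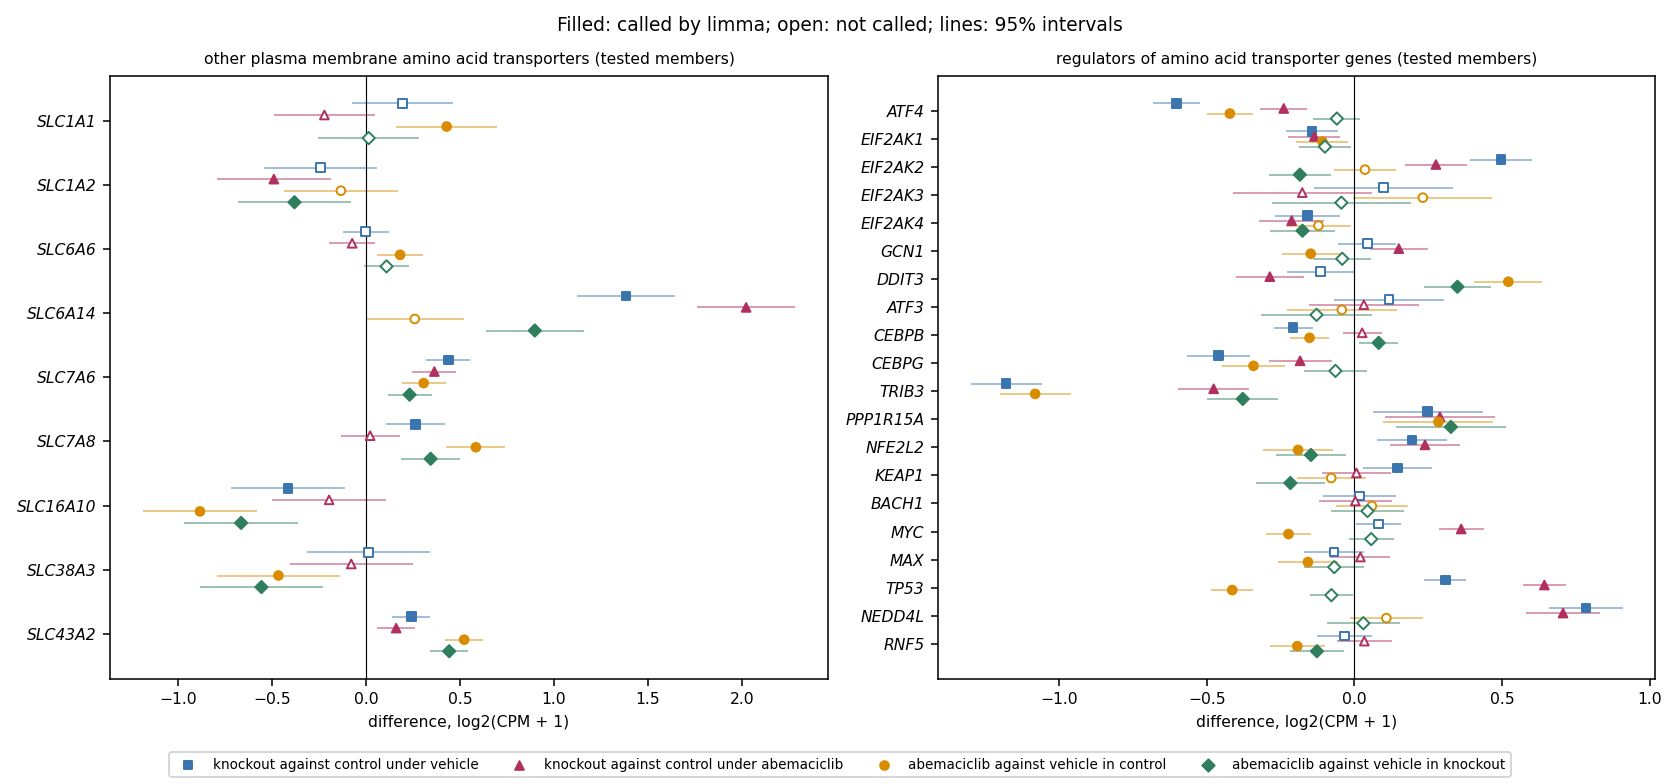
Difference in log2(CPM + 1) (x axis) with 95% intervals for the 9 tested other plasma membrane amino acid transporters (left) and the 20 tested regulators (right) in the 4 comparisons, filled where limma called them. SLC7A6 and SLC43A2 lie above 0 in all 4 comparisons, and ATF4 lies at -0.60 with knockout and -0.42 with abemaciclib in control cells. The SLC6A14 values come from control levels near 0 CPM.

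Likeness of pattern was measured as the root mean square difference between the centred log2(CPM + 1) profiles of the 4 group means, over 10335 protein-coding genes of at least 5 CPM, where 0 is an identical profile. The genes nearest to SLC7A11 were PSAT1, an enzyme of serine synthesis (0.140), and ASNS, asparagine synthetase (0.142), followed by SLC7A5 (0.222), PCK2 (0.254) and ACOX2 (0.260). PSAT1 went from 69.6 CPM in control vehicle to 26.5 in knockout vehicle, 25.3 in control abemaciclib and 19.2 in knockout abemaciclib libraries, and ASNS from 59.6 to 16.9, 19.1 and 15.5. The genes nearest to SLC38A2 were PTTG1IP (0.00552), GTF2IRD2B (0.00981), CHKB-CPT1B (0.0109), TULP4 (0.0113) and PLEKHA6 (0.0143), of which GTF2IRD2B has near-identical copies and CHKB-CPT1B is a readthrough gene, so their counts are uncertain. Among the 10 transporters, SLC7A1 and SLC1A5 were nearest to each other (0.0986), as were SLC7A5 and SLC43A1 (0.158) and SLC38A1 and SLC38A2 (0.111), while SLC7A11 and SLC38A2 were farthest apart (0.919). The place of SLC43A1 depends on the added 1 CPM, since it measured 0.448 to 4.34 CPM. Its means in knockout vehicle, control abemaciclib and knockout abemaciclib were 28.1%, 25.6% and 14.9% of control vehicle. Those of SLC7A5 were 51.0%, 37.1% and 31.4%, and those of SLC7A11 31.0%, 26.0% and 23.2%. Profiles of 4 points and small range lie close to many others, so the smaller distances of SLC38A2 and SLC38A1 also carry their small ranges of 0.42 and 0.14.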

How the data were processed

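RNA of 16 T47D libraries was sequenced after tagmentation by a commercial service, per the labels' protocols. The authors deposited 1 table of counts per 1000000 assigned reads (CPM). STAR 2.7.11 aligned the reads to GRCh38 and featureCounts of Subread 2.1.1 counted them, with SAMtools 1.22.1 and MultiQC 1.32, per the submitters' processing notes. Strand setting, annotation release and the handling of multi-mapped reads were not given. Of 78986 features, 92 spike-in features were left out, and 36134 had no symbol. The step of 1 read, 0.0836 to 0.101 CPM, gave the depth, and 70.2 to 71.8% of values above 0 were whole reads within 0.02 reads, too few for a count test.

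The filter on low values kept 16218 genes (1 CPM or more in 4 or more libraries). These were fitted as log2(CPM + 1) with limma 3.58.1 in R 4.3.3. A single fit of the 4 group means used all 16 libraries, with trended empirical Bayes, two-sided p-values adjusted by Benjamini-Hochberg across the 16218 genes. At this depth 1 CPM is about 10 reads, and reads not counted by molecule are not independent. Genes with whole reads in no more than 8 libraries are marked as uncertain. Ratios were tested by exact permutation. Gene positions come from GENCODE v29. The code was tested on simulated data. The rule named the 10 transporters, FAH, up to 4 called genes of at least 5 CPM in each direction of each list, and the genes nearest in pattern. The members and lists were chosen with earlier results of these data known. Alternatives were other pseudocounts, filters, scalings, tests, a replicate block and each library left out.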

Additional observations from a re-analysis of the deposited data

Results flagged for a closer look

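The drug difference differed between genotypes, by limma's test of the interaction, for 6 of the 9 transporter genes measured at 1 CPM or more in all libraries. Over all tested genes 4.68% had a positive and 6.16% a negative interaction called. The values on the log2(CPM + 1) scale were 1.44 for SLC7A11, 0.73 for SLC7A5, 0.21 for SLC3A2, 0.41 for SLC7A1, 0.39 for SLC1A5 and 0.48 for SLC6A9, all positive, which means a smaller decrease or no decrease with abemaciclib in knockout cells. SLC43A1, left out of this count, measured 0.85, and the filter on low values favoured that value because the gene passed it through its control vehicle libraries. With voom it was 1.15 and not called (adjusted p = 0.0806).

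A single library stood apart from the others of its group: SLC7A5 measured 89.9 CPM in control abemaciclib replicate 2, beside 83.6 to 84.6 CPM in the other 3. This was 1 of 40 groups of 4 tested for an outlying library by Dixon's criterion, and chance flags about 1 in 20.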

How the results depend on the processing

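Of 1285 differences of the 10 transporter genes under the alternatives, FAH and ratios not counted, 1240 kept their direction and their side of the threshold, 13 lost the call, 10 gained it and 22 changed sign, the last all without a call. The number of transporters called higher with knockout under abemaciclib was 1, and 2 with a replicate block (SLC38A1, 0.12, limma adjusted p = 0.02), with a range of 1 to 2 over the fits that each left out 1 library. With abemaciclib in control cells it was 1, and 2 with quantile normalization (SLC38A1, 0.15, adjusted p = 0.00648). With abemaciclib in knockout cells it was 2, 3 with quantile normalization (SLC6A9 added), and 1 with no filter on low values and with limma without a trend, with a range of 1 to 2 over the left-out libraries. Genes with a called interaction numbered 1758, and 1072 with no filter, which adjusts over more genes.

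Values near 0 changed sign. Median-of-ratios rescaling gave SLC38A1 -0.0622 with knockout under vehicle, SLC3A2 -0.0355 with knockout under abemaciclib and SLC38A2 an interaction of 0.0133, and quantile normalization gave SLC3A2 -0.0253 in that comparison and FAH an interaction of 0.0216. With 1 library left out, SLC38A1 ranged from -0.0205 to 0.0330 with knockout under vehicle and from -0.0494 to 0.0676 with abemaciclib in control cells, and SLC3A2 from -0.0129 to 0.0529 with knockout under abemaciclib and from -0.0200 to 0.0295 with abemaciclib in knockout cells. The interaction ranged from -0.0290 to 0.0228 for SLC38A2 and from -0.116 to 0.00720 for FAH, and the SLC1A4 to SLC1A5 ratio with knockout under abemaciclib from -0.188 to 0.0121. The cause was not tested.

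Rescaling moved the share of called genes that were higher, with median-of-ratios against CPM as deposited: 48.6% against 65.3% with knockout under vehicle, 46.9% against 62.2% with knockout under abemaciclib, 50.9% against 38.7% with abemaciclib in control cells and 52.4% against 28.6% with abemaciclib in knockout cells. Quantile normalization moved the median of all genes in the last from -0.07 to 0.03. Every called transporter difference kept its direction under both. Replicate numbers shared by the groups did not pair the libraries (correlations of -0.04 to 0.06 over 24 same-number pairs, and 5 of 16 libraries closest to their own number), and the replicate block changed no other count of transporters. No library's batch is given. Depth limits SLC43A1, at 5 to 46 reads, which the stricter filter of 5 CPM in 4 libraries left untested.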

Other observations

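Transporters of the lysosome and other inner membranes, a list of 11 of which 9 were tested, were measured in the same libraries. With knockout under vehicle 3 were called higher and none lower, where 24.6% and 13.1% of all tested genes were called, so the count higher was near the share over all genes. The 3 were MFSD12, which brings cysteine into lysosomes and melanosomes (0.37, limma adjusted p = 7.33e-04), SLC38A10 (0.33) and SLC36A1 (0.24), an exporter of small amino acids from the lysosome. With abemaciclib SLC38A7, which exports glutamine from the lysosome, rose by 0.50 in control and 0.40 in knockout cells, while SLC36A4 fell by 0.46 and 0.66. The list medians were 0.17, 0.06, 0.06 and 0.00 for knockout under vehicle, knockout under abemaciclib, abemaciclib in control and abemaciclib in knockout cells, and no member had a called interaction.

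Of 27 genes of amino acid sensing by mTORC1, 26 were tested. With knockout under vehicle 6 were higher and 2 lower (median 0.09), and with abemaciclib in control cells 7 were higher and 6 lower (-0.03). Over all tested genes the shares were 24.6% and 13.1% in the first and 19.6% and 31.1% in the second, and the count higher with knockout was near its share. SESN2, a leucine sensor that is also a target of ATF4, went from 46.2 CPM in control vehicle to 31.6 in knockout vehicle and 37.9 in control abemaciclib libraries, differences of -0.53 and -0.28 (limma adjusted p = 3.38e-10 and 2.63e-05), with an interaction of 0.25 (0.0188). RRAGD, a small GTPase that recruits mTORC1 to the lysosome, rose by 0.55 with knockout under vehicle and 0.52 with abemaciclib in control cells and measured 0.00 with abemaciclib in knockout cells, an interaction of -0.51 (limma adjusted p = 0.00904). DDIT4, an inhibitor of mTORC1, rose with abemaciclib by 0.61 in control and 0.59 in knockout cells.

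SLC6A14, a broad carrier of neutral and cationic amino acids, was chosen after its values were seen. It measured 0.0988 ± 0.0824 CPM in control vehicle, 0.314 ± 0.0746 in control abemaciclib, 1.87 ± 0.203 in knockout vehicle and 4.38 ± 0.758 CPM in knockout abemaciclib libraries (SD, n = 4). All 8 knockout libraries lay above all 8 control libraries. Over all tested genes, knockout libraries lay wholly above control libraries for 22.2% under vehicle and 16.5% under abemaciclib. SLC6A14 passed the filter on low values through the knockout libraries, so its call and its separation there were favoured by the filter.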
